A study of Homo sapiens with 24 samples.

Results

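RFX7 is a winged-helix transcription factor of the RFX family, whose members bind the X-box, a near-palindromic DNA element found in promoters. It has been reported to switch on a set of growth-restraining genes, among them PDCD4, PIK3IP1, MXD4 and PNRC1. HEK293A, the line studied here, is a flat, adherent human embryonic kidney line that carries adenovirus E1 genes. The genes described are RFX7, its neighbour TEX9 and 8 genes that RFX7 is reported to activate (PDCD4, PIK3IP1, MXD4, PNRC1, ABAT, TOB1, TSPYL1 and IP6K2), 10 of the 58174 gene symbols measured. They were chosen by name, and RFX7 was picked because of its own level over the genotypes, so the comparison of the YAP/TAZ-dKO line with the other lines is given below as a description without a test.

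The study measured messenger RNA in 24 libraries from YAP/TAZ-dKO, LATS1/2-dKO, RAP2A/B/C-tKO and WT HEK293A cells, each grown in serum-containing medium on fibronectin-coated hydrogels of 40 or 1 kPa, with 3 replicates per group and no further treatment. YAP and TAZ are the coactivators of the Hippo pathway, LATS1 and LATS2 the kinases that restrain them, and RAP2A, RAP2B and RAP2C small GTPases that the study places upstream. The labels do not say how many clones stand behind each knockout line, so a difference between lines and an effect of the knockout cannot be told apart. The values are FPKM, fragment counts scaled to transcript length and to library size, and can therefore be compared between genes.

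The interval widths deposited with the FPKM put the depth at 18850000 to 41230000 fragments per library. YAP1 stood at 5.49 to 6.78 FPKM in the 6 YAP/TAZ-dKO libraries, against 29.99 to 32.1 in the 6 WT libraries, and LATS1 at 4.97 to 6.001 FPKM in LATS1/2-dKO, against 11.8 to 13.9 in WT. The other targeted genes did not all fall. WWTR1, the gene of TAZ, had all 6 YAP/TAZ-dKO libraries below all 18 others. LATS2 averaged 3.30 ± 0.534 FPKM in LATS1/2-dKO and 2.47 ± 0.621 in WT (SD, n = 6 each). RAP2A was lower in RAP2A/B/C-tKO (6.57 ± 0.732 FPKM, against 8.35 ± 0.506 in WT), but RAP2B was higher (5.49 ± 0.451 against 4.43 ± 0.222) and RAP2C was not lower (21.1 ± 2.78 against 18.5 ± 1.34). The labels do not say which part of each gene was edited, so these RNA levels do not check the edits. The epithelial keratin KRT18 differed between the lines, with means of 52.2 FPKM in YAP/TAZ-dKO, 418 in LATS1/2-dKO, 269 in RAP2A/B/C-tKO and 189 in WT, and its part in the results below was not tested. EPCAM, another epithelial marker, did not exceed 0.146 FPKM and the blood marker PTPRC did not exceed 0.0178. KRT8 and VIM, like KRT18, had all 6 YAP/TAZ-dKO libraries below all 18 others. CDH2 and the fibroblast marker COL1A1 reached 1 FPKM in at least 3 libraries and did not separate the YAP/TAZ-dKO line in this way. The markers CD3E, CDH5 and DCN did not reach that level. RAP2A/B/C-tKO on 40 kPa replicate 3 and LATS1/2-dKO on 40 kPa replicate 1 stood apart from their groups. The SD over genes of their log2 difference from the mean of their 2 fellow replicates was 0.64 and 0.63, against 0.41 to 0.53 in the other libraries. Stiffness results that rest most on them are given with and without both, and MXD4 against WT with its range over the other settings.

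All 10 genes have a promoter in the RefSeq table used here (build GRCh38.p14, 250 bases before to 50 after a transcript start, 16 promoters for the 10 genes). A search on both strands for GTTGCNA, close to a single arm of the element, found it in 4 of the 10 genes, against 11.1% of the 27305 genes in the table, and for the full inverted repeat GTTNCCNNGGNAAC in 2 of the 10, against 0.593%. The letters were chosen after these promoters had been read, so the shares are a description only. The stretches of 60 bases around each match are shown because RFX factors read this element, with the matched bases in capitals, written 5′ to 3′ on the gene's strand. Those with the single arm are MXD4 (chr4:2262300-2262359, minus strand), TSPYL1 (chr6:116280038-116280097, minus strand), IP6K2 (chr3:48717297-48717356, minus strand) and the upstream of 2 promoters of TOB1 (chr17:50868153-50868212, minus strand). Those with the full X-box are ABAT (chr16:8712767-8712826, plus strand) and TEX9 (chr15:56365395-56365454, plus strand). In ABAT the match lies in the overlapping promoters at 8712587 to 8712886 and 8712699 to 8712998. The ABAT promoters at 8674367 to 8674666 and 8713330 to 8713629 hold no match.
MXD4: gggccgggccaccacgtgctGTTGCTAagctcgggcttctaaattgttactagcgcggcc
TSPYL1: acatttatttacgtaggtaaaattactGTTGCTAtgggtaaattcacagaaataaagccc
IP6K2: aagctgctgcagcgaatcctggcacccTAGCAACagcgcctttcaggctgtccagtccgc
TOB1: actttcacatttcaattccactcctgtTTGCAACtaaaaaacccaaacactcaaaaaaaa
ABAT: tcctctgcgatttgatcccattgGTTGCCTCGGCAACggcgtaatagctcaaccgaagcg
TEX9: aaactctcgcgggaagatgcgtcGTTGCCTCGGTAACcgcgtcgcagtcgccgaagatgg
The single arm runs forward in MXD4 and TSPYL1 and as its reverse complement in IP6K2 and TOB1, and the X-box of ABAT and TEX9 matches on both strands at the same bases. The promoters of PDCD4, PIK3IP1, PNRC1 and RFX7 in the table hold neither run of letters.

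RFX7 RNA was found in the YAP/TAZ-dKO line and hardly anywhere else. RFX7 (ENSG00000181827.14, hg19 chromosome 15, 56379478 to 56535464) stood at 6.39, 6.41 and 7.13 FPKM in YAP/TAZ-dKO cells on 40 kPa and at 6.45, 6.60 and 6.09 on 1 kPa. In the 18 libraries of the LATS1/2-dKO, RAP2A/B/C-tKO and WT lines it was listed at 0 in 15, and at 0.0101 (LATS1/2-dKO, 40 kPa, replicate 3), 0.00699 (RAP2A/B/C-tKO, 1 kPa, replicate 2) and 0.00648 FPKM (WT, 1 kPa, replicate 2) in the others. Read as 2 SD each way and as counting error only, the deposited intervals have the width of 717 to 965 fragments for RFX7 in each YAP/TAZ-dKO library. These are not counts, since the same reading gives 0.0164 for the WT value above 0. All 24 RFX7 values carry the status OK. No fold change is given, since the group set against it is listed at 0. A listed 0 may not mean absent RNA. The 37 mitochondrial entries are at 0 in all libraries too, for a reason that was not tested.

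TEX9, testis expressed 9 (ENSG00000151575.14, hg19 chromosome 15, 56536207 to 56738195), has an hg19 interval that starts 742 bases from the end of that of RFX7. The promoter of TEX9 with the X-box match does not lie at this edge. In build GRCh38.p14 it is at 56365176 to 56365475, and the promoters of RFX7 are at 56243830 to 56244129 and 56245033 to 56245332. TEX9 showed the same pattern as RFX7. It was at 5.38, 5.58 and 5.28 FPKM in YAP/TAZ-dKO cells on 40 kPa and at 4.82, 5.66 and 6.01 on 1 kPa. It was listed at 0 in 17 of the 18 other libraries and at 0.0191 in WT on 1 kPa replicate 3. Within the YAP/TAZ-dKO line neither gene was called for 40 against 1 kPa. The difference was, for RFX7, 0.05 ± 0.06 (SE) on the log2(FPKM + 1) scale and, for TEX9, -0.01 ± 0.07, with adjusted p = 0.917 and 0.991 (limma moderated test, Benjamini-Hochberg over 15828 genes).

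**Figure D1:**
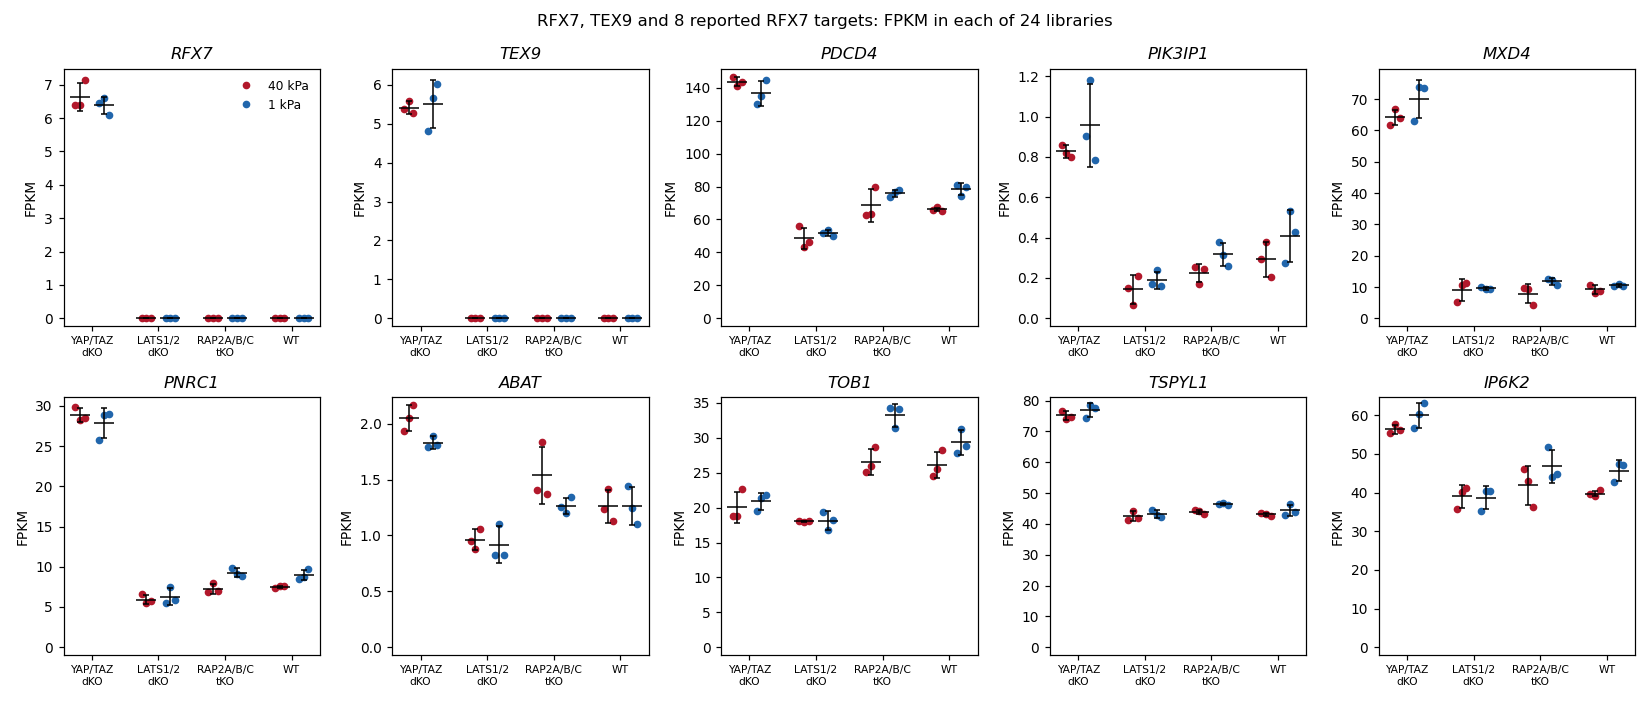
FPKM of RFX7, TEX9 and the 8 reported RFX7 targets in each of the 24 libraries, by genotype (YAP/TAZ-dKO, LATS1/2-dKO, RAP2A/B/C-tKO, WT from left to right) and stiffness (40 kPa red, 1 kPa blue); black bars are the mean and SD of 3 libraries. RFX7 and TEX9 lie at 4.82 to 7.13 FPKM in YAP/TAZ-dKO and at or near 0 elsewhere, and MXD4 lies at 61.8 to 73.8 FPKM in YAP/TAZ-dKO and at or below 12.6 in the other lines.

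The genes around RFX7 on chromosome 15 showed where this pattern begins and ends. NEDD4, a HECT-type ubiquitin ligase on the other side of RFX7 (hg19, 56119120 to 56285944), was at 3.28 to 4.71 FPKM in the 6 YAP/TAZ-dKO libraries, against 0 in 15 and at most 0.0752 FPKM in all of the 18 others. MNS1, a protein of sperm flagella and cilia whose interval overlaps the far end of TEX9, reached 0.0778 FPKM in YAP/TAZ-dKO and was listed at 0 in all 18 others. Between the nearest flanking genes that were above 0 in every library, PRTG and ZNF280D, lie 887 kb with 18 annotated entries, all with a median of 0 in the 18 libraries. Of these 18, 8 were at 0 in all 24 libraries, 9 were above 0 in some YAP/TAZ-dKO library and 3 (NEDD4, RFX7 and TEX9) reached 1 FPKM in all 6. The short entry RP11-291H24.1 did not separate the lines, at 0 to 8.12 FPKM in YAP/TAZ-dKO and 0 to 4.65 in the other lines.

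On either side of this stretch PRTG, PYGO1, ZNF280D and TCF12 were above 0 in all 24 libraries. The immunoglobulin-family receptor PRTG was at 2.65 to 2.96 FPKM in YAP/TAZ-dKO, against 0.130 to 0.488 in the other lines, and the Wnt pathway adaptor PYGO1 at 3.51 to 4.03 against 3.23 to 4.29. On the far side the zinc finger gene ZNF280D was lower in YAP/TAZ-dKO (0.420 to 1.33 FPKM, against 2.03 to 6.14) and the transcription factor TCF12 was at 18.6 to 23.6 against 16.0 to 27.8. So PRTG and ZNF280D, the flanking genes themselves, separated the lines in opposite directions, and the next ones out overlapped. Of all 15828 genes tested, 6 were at 1 FPKM or more in every YAP/TAZ-dKO library and below 0.1 in all 18 others, and 3 of these 6 are NEDD4, RFX7 and TEX9. The others were SOX11, UNCX and the clone-named RP11-499F3.2. RFX7 was picked for its level over the genotypes and TEX9 was listed as its neighbour, so their place among the 6 is a description only.

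**Figure D2:**
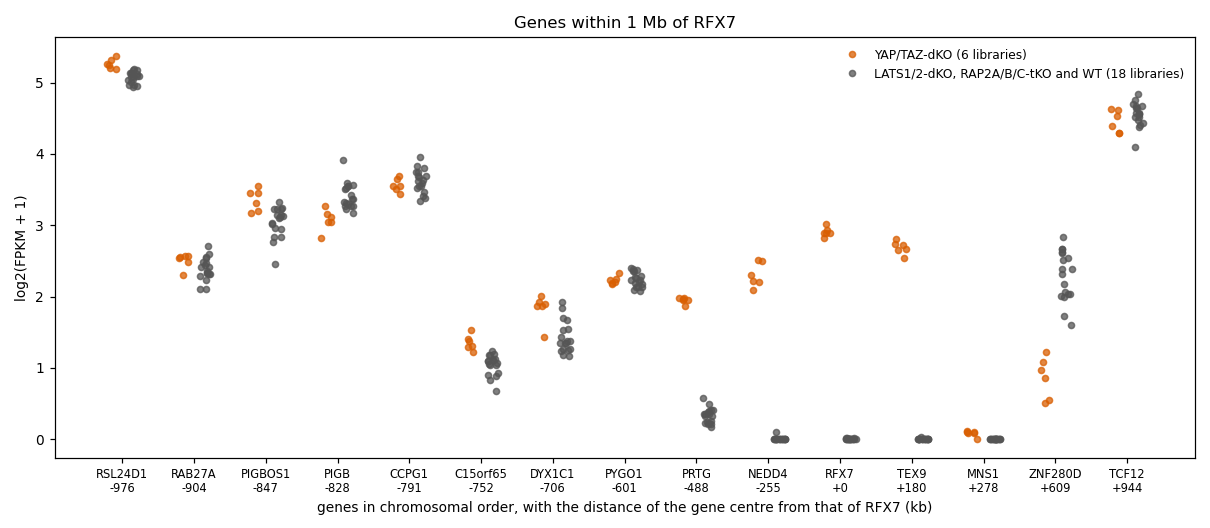
log2(FPKM + 1) of the genes within 1 Mb of RFX7 that reached 1 FPKM in any library, and of MNS1, in chromosomal order with the distance from RFX7 in kb; each point is 1 library, orange for the 6 YAP/TAZ-dKO libraries and grey for the 18 libraries of the other lines. NEDD4, RFX7 and TEX9 lie at or near 0 in all grey libraries, while genes farther out, such as PYGO1 and TCF12, overlap between the lines.

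By the root mean square difference over the 8 group means of log2(FPKM + 1), each profile centred on its own mean, the genes most like RFX7 among 13874 were TEX9 (0.0962), the alpha-catenin CTNNA3 on chromosome 10 (0.105), the phosphatase gene PUDP on chromosome X (0.152), the sialyltransferase ST3GAL1 on chromosome 8 (0.183) and MXD4 on chromosome 4 (0.189). PUDP was at 8.01 to 10.1 FPKM in YAP/TAZ-dKO and at most 0.129 in the other lines. CTNNA3 was at 9.27 to 10.6 FPKM in YAP/TAZ-dKO and at 0.0976 to 0.534 elsewhere. On this scale MXD4, at rank 5, was the reported target closest to RFX7. PNRC1 stood at rank 25, PDCD4 at 131, TSPYL1 at 359, IP6K2 at 1193, ABAT at 1437 and TOB1 at 10703. These ranks are a description and depend on the added 1, which sets the size of a change from 0. Over 18 other settings, 1 of them with 0.1 added, the log2 difference of YAP/TAZ-dKO from WT was 2.66 to 5.75 for TEX9. For MXD4 it was 2.61 to 2.76. The ranking with another added value was not tested.

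Of the 7 targets tested, 5 (MXD4, PNRC1, PDCD4, TSPYL1 and IP6K2) had all 6 YAP/TAZ-dKO libraries above all 18 others, beside 8.56% of all genes tested, and TOB1 was lower in YAP/TAZ-dKO than in WT. MXD4 (ENSG00000123933.14, hg19 chromosome 4, 2249159 to 2264021), a MAX partner that antagonises MYC, was at 61.8, 66.8 and 63.9 FPKM in YAP/TAZ-dKO on 40 kPa and at 63.0, 73.8 and 73.5 on 1 kPa. In WT it was at 10.6, 8.14 and 8.84 FPKM on 40 kPa and at 10.2, 11.03 and 10.4 on 1 kPa. This makes a 6.80-fold difference of the means and 2.65 ± 0.16 (SE) on the log2(FPKM + 1) scale. No library of the YAP/TAZ-dKO line came near any of the other 18, which spanned 4.38 to 12.6 FPKM with the lowest values in the libraries that stand apart (4.38 and 5.06).

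PNRC1 (ENSG00000146278.10, chromosome 6, 89790470 to 89794879), a nuclear receptor coregulator, was at 29.8, 28.3 and 28.4 FPKM in YAP/TAZ-dKO on 40 kPa and at 25.7, 28.9 and 29.02 on 1 kPa. WT cells had 7.38, 7.55 and 7.65 FPKM on 40 kPa and 8.50, 8.78 and 9.71 on 1 kPa, a ratio of means of 3.43. PDCD4 (ENSG00000150593.15, chromosome 10, 112631553 to 112659764), which binds the helicase eIF4A and inhibits translation, had a ratio of 1.94. It was at 130.2 to 146 FPKM (median 142) in YAP/TAZ-dKO, against 65.3 to 81.2 (median 70.7) in WT. Both genes separated all 6 YAP/TAZ-dKO libraries from all others.

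PIK3IP1 (ENSG00000100100.12, chromosome 22, 31677579 to 31688520), a membrane protein that inhibits PI3 kinase, was low throughout and failed the level filter (1 FPKM in at least 3 libraries). Its 6 YAP/TAZ-dKO libraries held 0.785 to 1.18 FPKM, against 0.204 to 0.530 in WT and at most 0.376 in the RAP2A/B/C-tKO and LATS1/2-dKO lines. Its intervals are wide. Read as counting error only, they have the width of 33.5 to 62.9 fragments per YAP/TAZ-dKO library and 4.56 to 17.7 per WT library, which are not counts.

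TSPYL1 (ENSG00000189241.6, chromosome 6, 116597741 to 116601066), a relative of nucleosome assembly proteins, varied little within a line. It was at 74.1 to 78.6 FPKM in YAP/TAZ-dKO, against 42.5 to 46.5 in WT, a ratio of 1.74. IP6K2 (ENSG00000068745.14, chromosome 3, 48725436 to 48777786), an inositol hexakisphosphate kinase, was at 55.3 to 63.1 FPKM, against 39.0 to 47.4 in WT, and its lowest YAP/TAZ-dKO library still lay above the highest of the 18 others (51.7, RAP2A/B/C-tKO on 1 kPa). ABAT (ENSG00000183044.11, chromosome 16, 8768422 to 8878432), the transaminase that breaks down GABA, was at 1.79 to 2.16 FPKM, against 1.11 to 1.44 in WT, and overlapped with a single other library, RAP2A/B/C-tKO on 40 kPa replicate 2 at 1.83.

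TOB1 (ENSG00000141232.4, chromosome 17, 48939584 to 48945339) went the other way. This antiproliferative protein, which links mRNAs to the CCR4-NOT deadenylase, was at 18.8, 18.8 and 22.6 FPKM in YAP/TAZ-dKO on 40 kPa and at 19.5, 21.3 and 21.8 on 1 kPa. In WT the values were 24.5, 25.6 and 28.2 FPKM on 40 kPa and 27.8, 31.3 and 28.9 on 1 kPa, so that every YAP/TAZ-dKO library lay below every WT library. They overlapped with the LATS1/2-dKO libraries (16.8 to 19.4 FPKM).

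The choice of RFX7 used this contrast, so no calls are given for it. Of the 7 targets tested, 6 had a log2 difference from WT above 0 and 1 below, with a median of 0.78, against 0.00 for all genes tested. Since RFX7 came with the line, its RNA, the loss of YAP and TAZ and any other difference of the line cannot be told apart in these data. In bulk RNA, fewer cells with a transcript and less of it per cell cannot be told apart either.

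The next comparisons set lines against each other in which RFX7 was at or near 0, so that the targets could be tested. RFX7 and TEX9 are left out of these counts, since they passed the level filter only through YAP/TAZ-dKO and could give no call. In LATS1/2-dKO against WT, averaged over both gels, 4 of the 7 targets tested were called, TOB1, PDCD4, PNRC1 and ABAT, beside 33.9% of all genes tested. All 4 were lower, beside 17.8% of all genes that were lower. TOB1 was at 16.8 to 19.4 FPKM (median 18.1) in LATS1/2-dKO, against 24.5 to 31.3 (median 28.0) in WT (log2 change -0.59 ± 0.05 SE, adjusted p = 1.14e-07). PDCD4 was at 43.5 to 55.9 FPKM (median 50.7), against 65.3 to 81.2 (median 70.7) in WT (-0.52 ± 0.06, adjusted p = 1.87e-06). For both genes all 6 LATS1/2-dKO libraries lay below all 6 WT libraries.

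PNRC1 had 5.45 to 7.44 FPKM (median 5.81) in LATS1/2-dKO and 7.38 to 9.71 (median 8.07) in WT, overlapping by 1 library on each side (-0.38 ± 0.06, adjusted p = 8.00e-05). ABAT had 0.823 to 1.11 FPKM (median 0.913) in LATS1/2-dKO and 1.11 to 1.44 (median 1.24) in WT (-0.22 ± 0.06, adjusted p = 0.00814). IP6K2 (-0.13 ± 0.06, adjusted p = 0.0930), MXD4 (-0.10 ± 0.16, adjusted p = 0.681) and TSPYL1 (-0.03 ± 0.03, adjusted p = 0.467) were not called. Over 18 other settings the MXD4 change lay between -0.19 and 0.06, so its sign was not fixed. MXD4 and TSPYL1, both above WT in every YAP/TAZ-dKO library, had values near those of WT in LATS1/2-dKO, at ratios of means of 0.946 and 0.980. PIK3IP1, untested, was at 0.0682 to 0.238 FPKM in LATS1/2-dKO, against 0.204 to 0.530 in WT.

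In RAP2A/B/C-tKO against WT, 0 of the 7 targets were called by limma, beside 16.0% of all genes tested, and 0 had an unadjusted p below 0.05, beside 28.5%. The log2 changes lay between -0.06 ± 0.16 (MXD4) and 0.10 ± 0.05 (TOB1, adjusted p = 0.244). Over 18 other settings the MXD4 change lay between -0.14 and 0.10, so its sign was not fixed. PDCD4 averaged 72.2 ± 7.51 FPKM in RAP2A/B/C-tKO and 72.2 ± 7.10 in WT (SD, n = 6 each). TSPYL1 averaged 45.2 ± 1.45 FPKM in RAP2A/B/C-tKO and 43.7 ± 1.44 in WT (SD, n = 6 each).

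**Figure D3:**
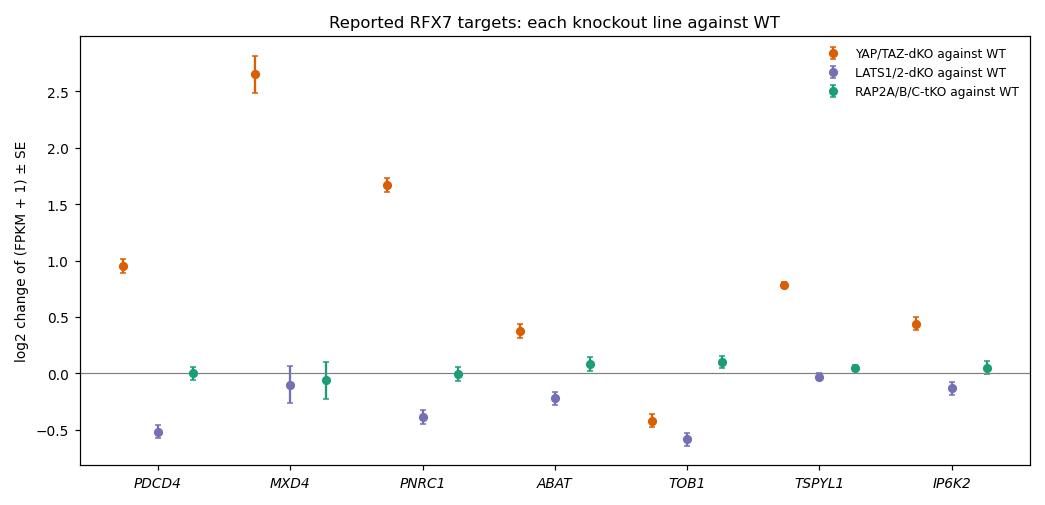
log2 change of (FPKM + 1) against WT, averaged over both gels, of the 7 tested RFX7 targets in YAP/TAZ-dKO (orange), LATS1/2-dKO (purple) and RAP2A/B/C-tKO (green); bars are the SE of the limma fit over 24 libraries, and all 3 comparisons share the 6 WT libraries. MXD4 lies at 2.65 in YAP/TAZ-dKO and near 0 in the other lines, and TOB1 lies below 0 in both YAP/TAZ-dKO and LATS1/2-dKO.

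Stiffness gave 1 call among the targets over the 4 lines. In WT cells 0 of the 7 targets tested were called by limma for 40 against 1 kPa, beside 0.986% of all genes tested. At an unadjusted p below 0.05 there were 4, beside 12.2% of all genes tested, all of them lower on the stiff gel (PDCD4, PNRC1, IP6K2 and TOB1). PDCD4 was at 65.7, 67.3 and 65.3 FPKM on 40 kPa and at 81.2, 74.2 and 79.4 on 1 kPa (-0.24 ± 0.08, adjusted p = 0.213). Without both libraries that stand apart, which are not WT libraries but enter the shared estimate of the spread, the same change had adjusted p = 0.00370. PNRC1 was at 7.38, 7.55 and 7.65 FPKM on 40 kPa and at 8.50, 8.78 and 9.71 on 1 kPa (-0.23 ± 0.09, adjusted p = 0.262), and IP6K2 at 39.7, 39.0 and 40.6 against 42.6, 47.4 and 47.0 (-0.19 ± 0.08, adjusted p = 0.332). For these 3 genes all libraries on 40 kPa lay below all on 1 kPa, as for 16.1% of all genes tested.

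In RAP2A/B/C-tKO cells TOB1 was the 1 target called of 7, beside 3.87% of all genes tested called and 2.88% called lower. It was at 25.0, 26.0 and 28.7 FPKM on 40 kPa and at 34.2, 31.3 and 34.1 on 1 kPa, without overlap (-0.31 ± 0.08, adjusted p = 0.0311). The call was lost when any of 4 of the 6 libraries was left out, both 40 kPa libraries other than replicate 3 and replicates 1 and 3 on 1 kPa (adjusted p = 0.0544 to 0.115). It was kept without both libraries that stand apart (-0.37, adjusted p = 0.0186). PNRC1 was not called (-0.31 ± 0.09, adjusted p = 0.0519), and was called in 1 of 12 alternatives, without replicate 2 on 40 kPa (adjusted p = 0.03165), with 6.86 to 7.99 FPKM on 40 kPa and 8.84 to 9.85 on 1 kPa. Together with TOB1 and PNRC1, MXD4 and TSPYL1 had all libraries on 40 kPa below all on 1 kPa, as did 15.3% of all genes tested, and ABAT had all of them above, as did 7.02%.

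PDCD4 in RAP2A/B/C-tKO was at 62.5, 63.2 and 79.7 FPKM on 40 kPa and at 73.4, 76.4 and 77.9 on 1 kPa (-0.15 ± 0.08, adjusted p = 0.296). The 79.7 belongs to replicate 3, which stands apart, and without both such libraries the change was -0.27 with adjusted p = 0.00414. MXD4 was at 9.70, 9.51 and 4.38 FPKM on 40 kPa and at 12.6, 12.1 and 10.6 on 1 kPa (-0.59 ± 0.23, adjusted p = 0.153), and without both such libraries at -0.26. In both genes replicate 3 lay far from its fellow replicates, above them for PDCD4 and below them for MXD4.

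In LATS1/2-dKO cells 0 of the 7 targets were called (limma), beside 0.708% of all genes tested, and 0 had an unadjusted p below 0.05, beside 12.8%. TOB1 was at 18.02, 17.98 and 18.1 FPKM on 40 kPa and at 19.4, 16.8 and 18.2 on 1 kPa. PDCD4 was at 55.9, 43.5 and 46.4 FPKM on 40 kPa and at 51.6, 53.7 and 49.8 on 1 kPa (-0.10 ± 0.08, adjusted p = 0.704), with the highest value in replicate 1, which stands apart. Without both libraries that stand apart it was -0.20 with adjusted p = 0.0379.

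In YAP/TAZ-dKO cells 0 of the 7 targets were called (limma), beside 0.347% of all genes tested, and 0 had an unadjusted p below 0.05, beside 7.70%. The targets' changes lay between -0.12 ± 0.23 (MXD4) and 0.11 ± 0.09 (ABAT). ABAT had all libraries on 40 kPa (1.93 to 2.16 FPKM) above all on 1 kPa (1.79 to 1.89), as did 9.88% of all genes tested. PDCD4 was at 146, 141 and 143 FPKM on 40 kPa and at 130.2, 135 and 145 on 1 kPa (0.07 ± 0.08, adjusted p = 0.908), and PNRC1 at 29.8, 28.3 and 28.4 against 25.7, 28.9 and 29.02 (0.05 ± 0.09, adjusted p = 0.943).

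**Figure D4:**
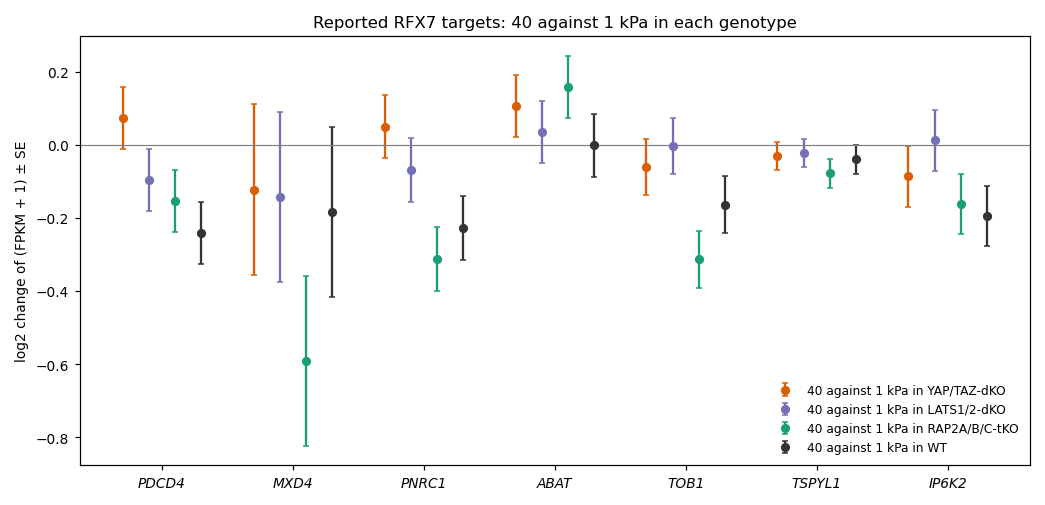
log2 change of (FPKM + 1) on 40 against 1 kPa of the 7 tested RFX7 targets in YAP/TAZ-dKO (orange), LATS1/2-dKO (purple), RAP2A/B/C-tKO (green) and WT (black); bars are the SE of the limma fit over 24 libraries. PDCD4 lies at -0.24 in WT and at 0.07 in YAP/TAZ-dKO, and MXD4 has the widest bars.

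The stiffness response was also compared between each knockout line and WT in an interaction contrast. None of the 7 targets was called in any of the 3 interactions (limma), beside 0.392% of all genes tested for YAP/TAZ-dKO, 0.0632% for LATS1/2-dKO and 0.0505% for RAP2A/B/C-tKO. For YAP/TAZ-dKO 2 targets had an unadjusted p below 0.05, PDCD4 (0.31 ± 0.12, adjusted p = 0.400) and PNRC1 (0.28 ± 0.12, adjusted p = 0.519), beside 8.83% of all genes tested. For LATS1/2-dKO and RAP2A/B/C-tKO there were 0, beside 9.06% and 6.41%. The PDCD4 interaction was called without both libraries that stand apart (adjusted p = 0.0112) and when the 12 libraries of the lines compared were fitted alone (adjusted p = 0.0371), at the same change of 0.31. When 1 of these 12 libraries was left out, it was not called in any case.

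The other RFX genes and partners gave some calls between lines and 0 for stiffness. Of 10 listed, RFX1, RFX2, RFX3, RFX5, RFXANK, RFXAP and ANKRA2 passed the level filter. RFX5, which with RFXANK and RFXAP drives MHC class II genes, was at 50.8 to 54.5 FPKM in YAP/TAZ-dKO, above all 18 other libraries (20.7 to 31.9). ANKRA2, an ankyrin repeat protein that binds RFX7, was at 6.58 to 11.4 FPKM in YAP/TAZ-dKO, below all others (12.3 to 21.1). In LATS1/2-dKO against WT 3 of the 7 were lower and 0 higher, beside 33.9% of all genes called and 17.8% called lower. The median log2 change was -0.19 against -0.01 for all genes. The 3 lower genes were RFXANK (-0.29 ± 0.09, adjusted p = 0.0190), RFXAP (-0.21 ± 0.07, adjusted p = 0.0268) and RFX2 (-0.39 ± 0.15, adjusted p = 0.0498). In RAP2A/B/C-tKO against WT 2 were lower and 0 higher, beside 16.0% of all genes called in either direction, with a median of -0.19 against 0.00. These were RFXANK (-0.34 ± 0.09, adjusted p = 0.0135) and RFXAP (-0.25 ± 0.07, adjusted p = 0.0205). For stiffness 0 of the 7 were called in each of the 4 lines (limma). The shares of all genes called were 0.347% in YAP/TAZ-dKO, 0.708% in LATS1/2-dKO, 3.87% in RAP2A/B/C-tKO and 0.986% in WT. In the same order the medians of the 7 were -0.05, -0.18, -0.28 and -0.28. Those of all genes tested were -0.01, -0.03, -0.04 and -0.03.

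Paralogs and partners of the targets gave a mixed picture. Of 15 listed, 13 were tested. In LATS1/2-dKO against WT, 5 fell (TOB2, BTG1, MXD1, MXI1 and PNRC2) and 2 rose (BTG3 and TSPYL4), beside 33.9% of all genes called, with a median log2 change of -0.20 against -0.01 for all genes tested. In RAP2A/B/C-tKO against WT, 2 rose (PNRC2 and IP6K1) and BTG2 fell (-0.23 ± 0.04, adjusted p = 0.000672), beside 16.0% of all genes called. For 40 against 1 kPa (limma), 2 of the 13 were called in WT, beside 0.986% of all genes tested. In RAP2A/B/C-tKO 3 were called, beside 3.87%, and in LATS1/2-dKO 1, beside 0.708%. BTG2, an antiproliferative relative of TOB1, fell in WT (-0.30 ± 0.06, adjusted p = 0.0142) and in RAP2A/B/C-tKO (-0.31 ± 0.06, adjusted p = 0.00654). TOB2, another relative of TOB1, fell in RAP2A/B/C-tKO (-0.25 ± 0.07, adjusted p = 0.0463). TSPYL4, a relative of TSPYL1, fell in WT (-0.28 ± 0.05, adjusted p = 0.00592), in RAP2A/B/C-tKO (-0.23 ± 0.05, adjusted p = 0.0125) and in LATS1/2-dKO (-0.23 ± 0.05, adjusted p = 0.0377). In YAP/TAZ-dKO 0 of the 13 were called for stiffness, beside 0.347% of all genes tested. BTG2 stood at 12.5 to 13.7 FPKM in YAP/TAZ-dKO, against 5.36 to 7.39 in WT, and MXD3, a close relative of MXD4, at 19.8 to 32.8 against 9.04 to 15.1. The relatives did not all go this way, as BTG1, BTG3 and MXD1 were lower in YAP/TAZ-dKO than in WT.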

How the data were processed

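The authors deposited 1 table of gene FPKM values per library with the bounds of a confidence interval, a status and coordinates, per the file headers. Per the submitters' processing notes the tools were STAR 2.4.2a and Cufflinks 2.2.1 on build hg19; these name no annotation release and no rule for strand or multiply matching reads, so overlapping genes cannot be separated with certainty. The library kit was stranded and selected mRNA, per the labels' protocols. FPKM of entries with the same symbol were summed, and 92 symbols with another status than OK or LOWDATA in some library were left out of 60350 entries.

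Tests used log2(FPKM + 1), without further scaling, on 15828 genes with at least 1 FPKM in at least 3 libraries. Of the 10 members 9 passed, 2 of them (RFX7 and TEX9) only through YAP/TAZ-dKO. A fold change on this scale understates the change of low genes. limma 3.58.1 (R 4.3.3) estimated a mean for each group from all 24 libraries (16 residual degrees of freedom) and a trend of the spread on the level. Tests were two-sided, with p-values adjusted by Benjamini-Hochberg over all genes within each of 10 contrasts and a threshold of 0.05. The fit was tested on simulated data. Depth was taken from the width of the intervals of genes with 1 transcript and 10 to 100 fragments, and covers counting error only. The design text calls the replicates biological.

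Members and gene lists were chosen with earlier results of these data known. The named genes were all members, the genes of the lists reported (RFX genes and relatives of the targets; a further list is not reported here), expressed genes within 1 Mb of RFX7 and the 5 genes most like RFX7. Other settings tried were a pseudocount of 0.1, no level filter, scaling to a common median ratio, only the groups compared, each library left out, both libraries that stand apart left out, and a replicate block.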

Additional observations from a re-analysis of the deposited data

How the results depend on the processing

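The numbers of targets called against WT (4 of 7 in LATS1/2-dKO and 0 of 7 in RAP2A/B/C-tKO) did not change in any setting tried, except that LATS1/2-dKO gave 5 without a level filter, where PIK3IP1 is tested too, and the LATS1/2-dKO calls of TOB1, PDCD4, PNRC1 and ABAT were kept in all 18 alternatives. For stiffness in RAP2A/B/C-tKO the 1 call (TOB1) became 0 without a level filter and 0 when only its 6 libraries were fitted, 2 without both libraries that stand apart, and 0 to 1 when 1 library was left out. Leaving out both such libraries gave 1 call (PDCD4) in WT, 1 in LATS1/2-dKO and 1 in the interaction of YAP/TAZ-dKO with WT, against 0 with them, and fitting only the 12 libraries compared also gave 1 in that interaction. The cause was not tested. Replicate numbers did not pair the libraries: of 84 pairs with the same number 3 correlated above 0.1, and the replicate block left the counts of targets called as they were (1 for stiffness in RAP2A/B/C-tKO, 4 in LATS1/2-dKO against WT). Scaling moved the median of all genes by at most 0.03. Depth limits PIK3IP1, the 3 values of RFX7 just above 0 and ABAT in LATS1/2-dKO. Read as counting error only, the ABAT intervals there have the width of 6.66 to 17.2 fragments per library, which are not counts.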
